A study of Sus scrofa with 4 samples.

Results

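The genes described here are DCN, LUM, BGN, FMOD, OGN, PRELP, ASPN, VCAN and PODN, which encode proteoglycans and related proteins of the extracellular matrix. They were chosen by name among the protein-coding genes, and each of the 9 names matched exactly 1 of the 16192 protein-coding genes in the deposited data, which hold 31567 features in all. Preadipocytes from the subcutaneous fat of 3 male 5-day-old Chinese Erhualian piglets were grown to confluence (D0), given a hormone cocktail of dexamethasone, 3-isobutyl-1-methylxanthine and insulin until D2, kept in medium with insulin until D4 and then in growth medium until D8. All 4 stages share the breed, the sex, the growth medium with fetal bovine serum and the 3 animals. The RNA of the 3 piglets was mixed in equal parts at each stage, depleted of rRNA and made into 1 strand-specific library, so that there are no replicates, a stage cannot be told apart from its library, and no test of stages was possible.

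All of these proteins except VCAN belong to the small leucine-rich proteoglycans, whose curved core protein is built from leucine-rich repeats. Most of them bind fibrillar collagen outside the cell and control how thick and how evenly spaced its fibrils become, and several also bind growth factors of the TGF-beta family. The family is divided into classes by sequence, with DCN (decorin), BGN (biglycan) and ASPN (asporin) in class I, LUM (lumican), FMOD (fibromodulin) and PRELP (prolargin) in class II, OGN (osteoglycin, also called mimecan) in class III and PODN (podocan) in class V. VCAN (versican) is a large chondroitin sulfate proteoglycan of the lectican family, which binds hyaluronan and makes loose, hydrated matrix around dividing and migrating cells. In fat tissue, the stromal cells and preadipocytes make most of this matrix.

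Expression was measured as FPKM, a fragment count scaled to transcript length and to library size, so that levels of different genes can be set side by side. The totals behind the FPKM values were 75387428 fragments at D0 and then 54987801, 74358922 and 54128151 at D2, D4 and D8. With these totals, the FPKM of each of the 9 genes could be turned into whole reads, from 6 for PODN at D2 to 103620 for VCAN at D4. The smallest gene length that gave whole reads was used, and for genes with few reads the true length, and with it the reads, could be a multiple of it, which would narrow the intervals. The 95% intervals given with ratios come from these reads and express counting error alone, as piglets were pooled and libraries were not repeated. In bulk RNA, fewer cells of a type and less RNA per cell cannot be told apart. Of 8 adipocyte markers that passed the filter on low values, such as PLIN1 and ADIPOQ, all 8 were at least 2-fold higher at D2, D4 and D8 than at D0. The shares of all tested genes were 6.67%, 10.4% and 3.60%. From D4 to D8, 4 of the 8 were at least 2-fold lower (PLIN1, CEBPA, PPARG and LIPE), beside 10.1%, and 0 higher, beside 4.43%. The summed FPKM of the 9 preadipocyte and fibroblast markers was between 1110 and 2750, with COL3A1 as the largest part in each library and CD34 under FPKM 1 in all 4 libraries. Of the 8 that passed the filter, 2 were at least 2-fold higher (COL3A1 and FN1) and 2 lower (NT5E and ENG) at D8 than at D0. The shares of all tested genes were 3.60% and 3.68%. PDGFRB and COL3A1 were at least 2-fold higher at D4 than at D0, beside 10.4%, and NT5E at least 2-fold lower, beside 8.81%. PDGFRA, PDGFRB and ENG were at least 2-fold lower at D8 than at D4, beside 10.1%, and 0 of the 8 higher, beside 4.43%. Of 7 cartilage and bone markers, 0 reached FPKM 1 at any stage. Endothelial markers added up to between 1.16 and 2.74 FPKM and leukocyte markers to between 3.59 and 8.95.

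In summed FPKM, the pool of proteoglycan mRNA differed by at most 1.31-fold between stages, and its make-up shifted. The summed FPKM of the 9 genes was 629 at D0 and then 722, 767 and 586 at D2, D4 and D8, and their reads made up 0.190%, 0.217%, 0.267% and 0.181% of the library, respectively. FMOD held the largest share of the summed FPKM at D0, at 42.8%, and DCN the largest at D2, D4 and D8, at 36.5%, 43.0% and 39.6%. The share of FMOD was 24.4% at D2, 10.3% at D4 and 13.4% at D8. LUM went from 5.19% at D0 to 17.8% at D2 and 24.3% at D4, and stood at 13.1% at D8. VCAN held 4.31%, 7.65%, 14.3% and 8.91%, and ASPN 17.8%, 9.15%, 4.81% and 21.8%, at D0, D2, D4 and D8. BGN stayed between 2.63% and 4.81%, and OGN, PRELP and PODN together never reached 1%.

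**Figure D1:**
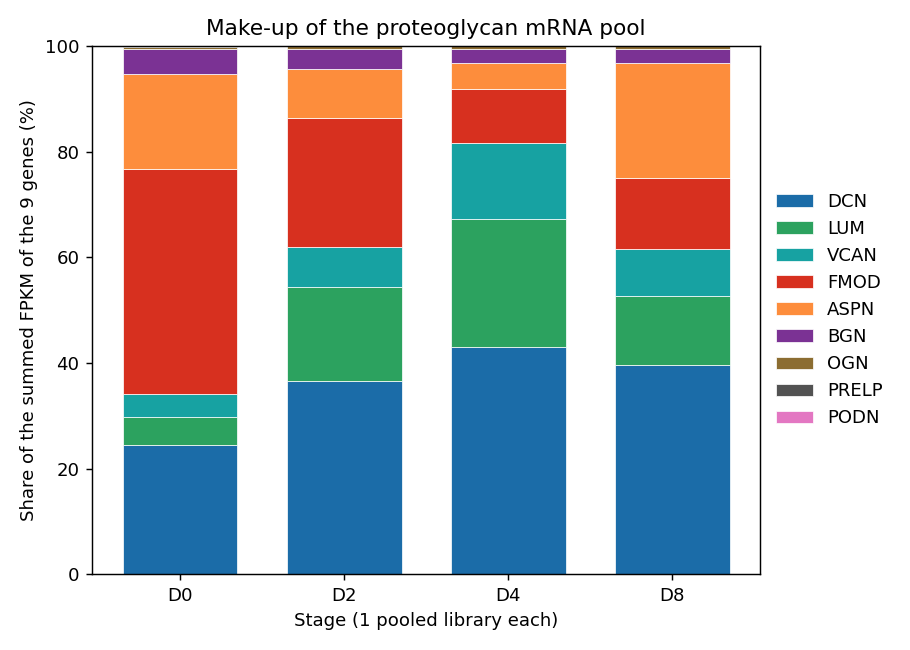
Share of the summed FPKM (y axis, in percent) that each of the 9 proteoglycan genes held in the libraries of D0, D2, D4 and D8 (x axis), as stacked bars with 1 pooled library per stage. FMOD shrinks from 42.8% at D0 to 10.3% at D4, while LUM grows from 5.19% to 24.3%.

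In order of level, FMOD, DCN and ASPN led at D0, DCN, FMOD and LUM at D2, DCN, LUM and VCAN at D4, and DCN, ASPN and FMOD at D8. DCN ranked 173rd among the protein-coding genes above 0 at D4, its highest place, and 384th at D0. Within a library, the counting interval of the ratio between neighbours in this order included 1 for 3 of 32 neighbouring pairs. These were FMOD and LUM at D8 (FPKM 78.5 and 77.0), and PRELP and PODN at D2 and at D4. OGN, PRELP and PODN held the last 3 places in each library.

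DCN and LUM lie next to each other on the plus strand of chromosome 5 (Sscrofa11.1), DCN at chr5:91678601-91713925 and LUM at chr5:91748871-91756381, with 34945 bases between them. The FPKM of DCN, the best known collagen-binding member of the family, was 154 at D0 and then 264, 330 and 232 at D2, D4 and D8. Its level was lowest at D0 and highest at D4. Only D4 was at least 2-fold above D0, with a log2 ratio of 1.10 (95% counting interval 1.07 to 1.12).

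LUM, which keeps collagen fibrils thin and regular in the cornea, had an FPKM of 32.6 at D0 and then 128, 186 and 77.0 at D2, D4 and D8. It had the largest rises of the 9 genes from D0, with a log2 ratio of 1.97 (1.93 to 2.02) at D2, 2.51 (2.47 to 2.56) at D4 and 1.24 (1.19 to 1.29) at D8. From D4 to D8 it was lower by a log2 ratio of -1.28 (-1.31 to -1.24), and D8 remained above D0.

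The next protein-coding gene behind LUM on the same strand is KERA, which encodes keratocan, the class II relative best known from the cornea. KERA was close to absent, with an FPKM of 0.0615 at D0 and then 0.246, 0.260 and 0.0856 at D2, D4 and D8, from 12, 35, 50 and 12 reads. It was highest at D2 and D4, as LUM was, at a level between 0.1% and 0.2% of that of LUM. EPYC, the class III gene that follows it, had at most 6 reads in a library. A newly assembled antisense RNA, MSTRG.54218, runs across LUM on the minus strand and had 1, 3, 14 and 1 reads at D0, D2, D4 and D8. Its FPKM was between 0.0797% and 0.336% of that of LUM. The library kit marks strand, but the strand setting of the counting is not given in the sources used here, so that the reads of LUM and of this RNA cannot be told apart with certainty.

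FMOD and PRELP lie 117124 bases apart on chromosome 9 and point in opposite directions, with FMOD at chr9:64062995-64073853 on the minus strand and PRELP at chr9:64190978-64207008 on the plus strand. FMOD, a collagen-binding keratan sulfate proteoglycan that is abundant in tendon and shares a binding region on collagen with LUM, had an FPKM of 269 at D0 and then 176, 79.0 and 78.5 at D2, D4 and D8. Its level was highest at D0 and lowest at D4 and D8, which did not differ from each other beyond counting error. The log2 ratio of D4 to D2 was -1.16 (-1.18 to -1.13), and those of D4 and D8 to D0 were -1.77 (-1.79 to -1.74) and -1.78 (-1.80 to -1.75).

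PRELP, which anchors basement membranes to connective tissue, had an FPKM of 1.13 at D0 and then 0.0701, 0.238 and 0.480 at D2, D4 and D8, from 332, 15, 69 and 101 reads. It was above FPKM 1 only at D0 and therefore did not pass the filter that asks for FPKM 1 in at least 3 of the 4 libraries. Its D2 level was the lowest, with the FPKM at D0 16.1 times as high. On the log2(FPKM + 0.01) scale used for all ratios, which understates differences of low genes, the ratio was -3.83 (-4.87 to -3.27), and it was -2.86 with a pseudocount of 0.1 and -0.99 with a pseudocount of 1. Its levels at D4 and D8 lay between the levels at D2 and D0. An annotated lncRNA on the other strand, LOC106507842, overlaps PRELP and had 22, 25, 38 and 78 reads at D0, D2, D4 and D8, with an FPKM of 0.140 at D0 and of 0.217, 0.244 and 0.689 at the later stages. Its FPKM was above that of PRELP at D2, D4 and D8. Without the strand setting, reads of PRELP and of this RNA cannot be told apart. OPTC, the class III gene behind PRELP, had 1 read in all 4 libraries together.

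**Figure D2:**
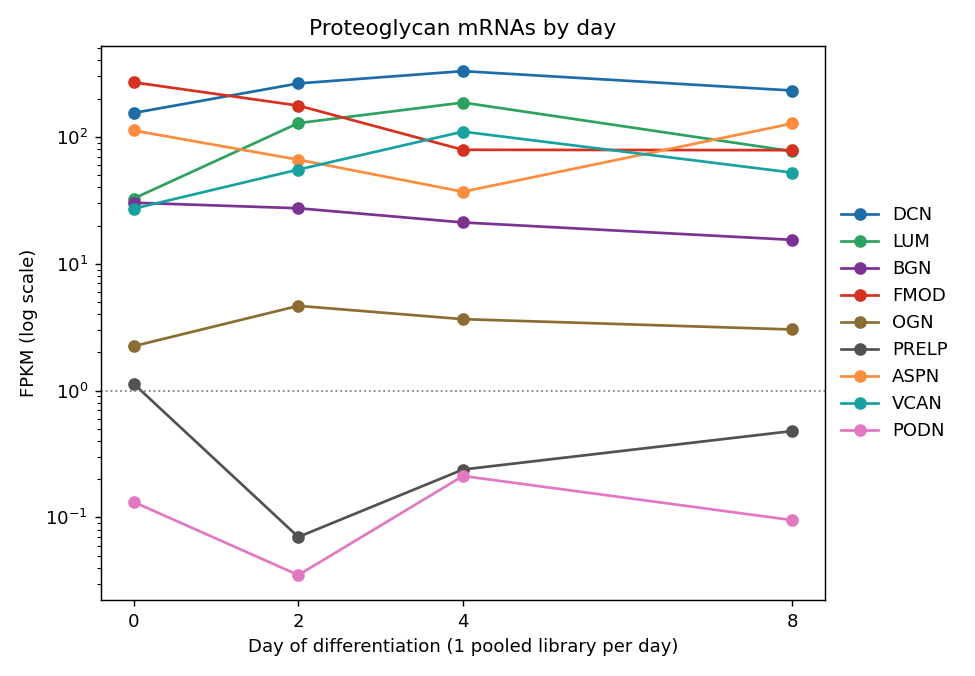
FPKM (y axis, log scale) of the 9 proteoglycan genes on days 0, 2, 4 and 8 of differentiation (x axis), with 1 point per pooled library and a dotted line at FPKM 1. LUM, VCAN and DCN peak on day 4, ASPN is lowest on day 4 at 36.9 and highest on day 8 at 127, and FMOD falls from 269 to 79.0 by day 4.

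OGN and ASPN lie on the minus strand of chromosome 3, at chr3:42116521-42135940 and chr3:42165553-42192902, and both sit inside the span of CENPP, a centromere protein gene on the plus strand. ASPN, which binds collagen and TGF-beta and carries a stretch of aspartate residues in place of the sugar chain site, had an FPKM of 112 at D0 and then 66.1, 36.9 and 127 at D2, D4 and D8. Its course ran against that of LUM and VCAN, with the lowest level at D4 and the highest at D8. The log2 ratio was -1.60 (-1.64 to -1.57) for D4 to D0 and 1.79 (1.75 to 1.83) for D8 to D4. D8 was above D0 by a log2 ratio of 0.18 (0.16 to 0.21), far under 2-fold. Markers of smooth muscle were also low at D2 and D4, but their sum was highest at D0. The 7 genes of that list added up to FPKM 6243 at D0 and then 669, 518 and 4832 at D2, D4 and D8. ACTA2 and TAGLN led the list, and MYH11 was under FPKM 1 throughout. Of the 6 that passed the filter, 5 were at least 2-fold higher at D8 than at D4, beside 4.43% of all tested genes. Between D8 and D0, 3 of the 6 were at least 2-fold lower, beside 3.68%, and 0 higher, beside 3.60%. Their median log2 ratio of D8 to D0 was -0.88. The tendon markers did not move together. TNMD had an FPKM of 4.27, 10.7, 11.98 and 78.3 at the 4 stages and COMP 1.31, 18.2, 9.48 and 0.739, with SCX under FPKM 1 throughout. MKX had 2.57, 1.07, 0.483 and 1.66, with the lowest level at D4, as ASPN had, and the highest at D0. The part of such cells in the level of ASPN was not tested.

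OGN had an FPKM of 2.24 at D0 and then 4.65, 3.66 and 3.03 at D2, D4 and D8. It was at least 2-fold above D0 only at D2, with a log2 ratio of 1.05 (0.90 to 1.21), an interval that reaches under 1. Between OGN and ASPN lies OMD, which encodes osteomodulin, a class II relative known from bone. The FPKM of OMD was 1.12, 2.08, 2.17 and 5.69 at D0, D2, D4 and D8, so that its log2 ratio of D8 to D0 was 2.34. Beyond ASPN follows ECM2, a related matrix gene, with an FPKM of 26.8, 31.8, 19.4 and 39.3. ASPN, OMD and ECM2 were highest at D8 and each was at least 2-fold higher at D8 than at D4, whereas OGN was highest at D2. CENPP had 736, 297, 565 and 415 reads and was above OGN in FPKM only at D0, at 3.00 against 2.24. As the strand setting is not given, its reads cannot be told apart with certainty from those of OGN, of whose FPKM it had between 35.7% and 134%, and of ASPN, of whose FPKM it had between 1.85% and 6.32%.

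BGN, the closest relative of DCN, lies on chromosome X at chrX:124282048-124295450. Its FPKM was 30.3 at D0 and then 27.4, 21.1 and 15.4 at D2, D4 and D8. The level at each stage was under that of the stage before, and the log2 ratio of D8 to D0, -0.97 (-1.05 to -0.90), stayed just short of 2-fold. PODN, at chr6:159155251-159179456, was at or under 49 reads in each library, with an FPKM of 0.132 at D0 and then 0.0351, 0.212 and 0.0951 at D2, D4 and D8. It was highest at D4 and lowest at D2, did not reach FPKM 1 at any stage, and the counting interval of its log2 ratio of D8 to D0 included 0 (-1.45 to 0.44).

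VCAN, at chr2:91682177-91811674, is the longest of the 9 genes. Its FPKM was 27.1 at D0 and then 55.2, 110 and 52.3 at D2, D4 and D8, so that the level was lowest at D0, highest at D4 and about equal at D2 and D8. The log2 ratio to D0 was 1.03 (1.003 to 1.05) at D2, 2.02 (1.999 to 2.04) at D4 and 0.94 (0.92 to 0.97) at D8, and that of D8 to D4 was -1.07 (-1.09 to -1.06). Its neighbour HAPLN1, the gene of a link protein that fastens versican and aggrecan to hyaluronan, was listed at 0 at D0, D2 and D4 and at FPKM 0.00663 at D8.

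VCAN was also the only one of the 9 genes with circRNAs, closed RNA loops whose back-splice junction reads were deposited as SRPBM (junction reads scaled to the mapped reads of the library). The 4 circRNAs lie on the VCAN strand and share a single start, 85843 bases from the start of the gene, and have spans of 5238, 10305, 16753 and 41522 bases. The shortest, ssc_circ_0001395, had 23 junction reads at D0 and then 26, 45 and 45 at D2, D4 and D8. That corresponds to 148, 189, 267 and 378 SRPBM. The circle of 16753 bases had 12, 7, 21 and 22 junction reads. The circle of 41522 bases was listed at 0 at D0 and D2 and had 8 and 4 junction reads at D4 and D8. The circle of 10305 bases was listed at 0 except at D8, with 3 junction reads. As the authors kept circRNAs with at least 2 junction reads, a value of 0 does not show that a circle was absent.

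Added up, the VCAN circRNAs had 225 SRPBM at D0 and then 240, 439 and 622 at D2, D4 and D8. From D4 to D8 the log2 ratio of this sum was 0.50 (0.02 to 0.99), while that of the mRNA was -1.07, and the 2 intervals do not overlap. The summed junction reads were equal, 74 at D4 and 74 at D8. The ratio of 0.50 therefore comes from the scaling to mapped reads, 1.68e+08 at D4 and 1.19e+08 at D8. The SRPBM of circRNAs per FPKM of mRNA was 8.28 at D0 and then 4.34, 3.996 and 11.9 at D2, D4 and D8, 2.98-fold higher at D8 than at D4. The 2 values rest on different aligners and on different totals, and this ratio therefore compares stages and not amounts of circRNA and mRNA. The VCAN circRNAs also took a larger share of all junction reads at D8, 0.197%, than at D4, 0.145%, D2, 0.0750%, or D0, 0.0658%.

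**Figure D3:**
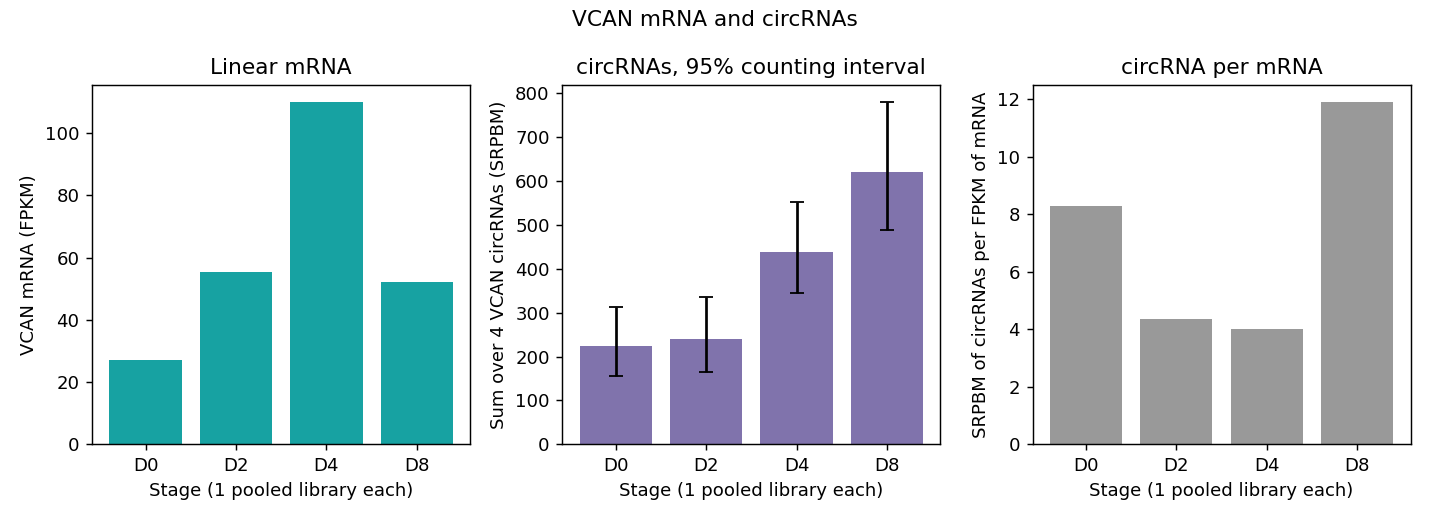
VCAN mRNA (FPKM), the sum of the 4 VCAN circRNAs (SRPBM, with exact 95% Poisson counting intervals) and their quotient (SRPBM per FPKM), each by stage (x axis) with 1 pooled library per stage. The mRNA is highest at D4, at 110, whereas the circRNA sum is highest at D8, at 622.

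The 5 comparisons are those of the study, but the authors called genes with the program DEGseq and also required a false discovery rate. Here a fold of at least 2 on log2(FPKM + 0.01) was used alone. It was applied among the 9191 protein-coding genes with FPKM of at least 1 in at least 3 libraries. Of the 9 genes, 7 passed this filter and PRELP and PODN did not. Between D2 and D0, LUM, OGN and VCAN were at least 2-fold higher and 0 of the 7 were at least 2-fold lower, beside 6.67% of all tested genes higher, 10.1% lower and 16.8% in either direction. Of the 7 genes, 4 were higher and 3 lower. Their median log2 ratio was 0.77, against -0.03 for all tested genes, but the median over all 9 genes had the opposite sign, at -0.15. With a pseudocount of 1, OGN (log2 ratio 0.80) and VCAN (0.9993) were no longer past 2-fold, and LUM was the only gene left.

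Between D4 and D2, FMOD was at least 2-fold lower and 0 of the 7 were at least 2-fold higher, beside 0.838% of all tested genes lower, 4.24% higher and 5.08% in either direction. VCAN was just under 2-fold higher, with a log2 ratio of 0.99 (0.98 to 1.01). The median was -0.35 for the 7 genes and 0.09 for all tested genes, and here too the median over all 9 genes had the other sign, at 0.32. Between D4 and D0, DCN, LUM and VCAN were at least 2-fold higher, beside 10.4% of all tested genes, and FMOD and ASPN at least 2-fold lower, beside 8.81%. These 5 of 7 genes compare with 19.2% of all tested genes in either direction. The median over the 7 genes, 0.71, joined genes that lay as far apart as -1.77 and 2.51.

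Between D8 and D4, ASPN was at least 2-fold higher, beside 4.43% of all tested genes, and LUM and VCAN were at least 2-fold lower, beside 10.1%, with 14.5% of tested genes in either direction. Of the 7 genes, 6 were lower at D8, with a median of -0.46 against -0.21 for all tested genes. Under median-of-ratios scaling, which moves each log2 ratio of D8 to D4 up by 0.20, VCAN had a log2 ratio of -0.87 and only LUM and ASPN were past 2-fold, 1 in each direction. Between D8 and D0, LUM was at least 2-fold higher, beside 3.60% of all tested genes, and FMOD at least 2-fold lower, beside 3.68%, and 7.28% were past 2-fold in either direction. The median was 0.44 for the 7 genes, 0.18 over all 9 and -0.18 for all tested genes. The same scaling moves these ratios up by 0.16, which takes VCAN to 1.10 and past 2-fold, so that 2 genes were higher and 1 was lower. These comparisons share libraries, and those with D0 share the D0 library in particular.

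**Figure D4:**
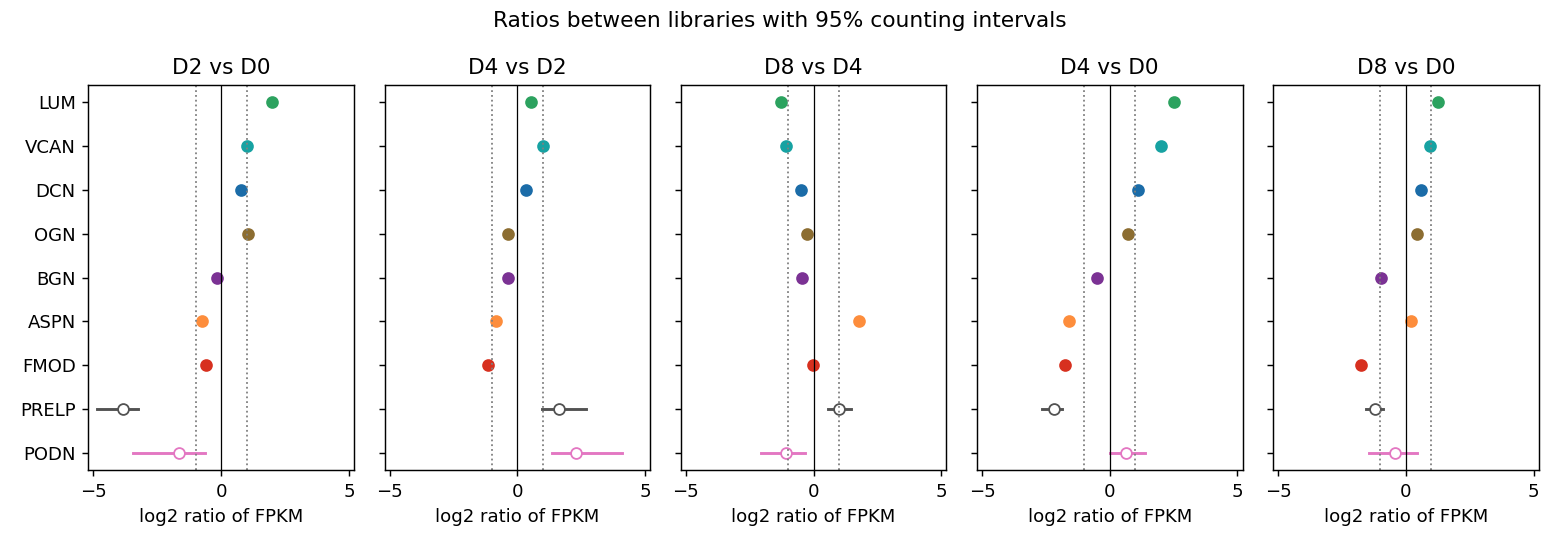
log2 ratio of FPKM (x axis, with 95% counting intervals as lines that are often shorter than the points) for each of the 9 genes in the 5 comparisons, with dotted lines at a 2-fold difference and open circles for PRELP and PODN, which did not pass the filter. LUM and VCAN lie to the right and FMOD and ASPN to the left of 0 in D4 vs D0, and ASPN lies at 1.79 in D8 vs D4.

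Ratios between 2 genes of 1 library do not depend on how the libraries are scaled. The FPKM of FMOD was 8.25 times that of LUM at D0 (95% counting interval 8.01 to 8.49), 1.38 times at D2 (1.35 to 1.40) and 0.424 times at D4 (0.416 to 0.432). At D8 it was 1.02 times that of LUM (0.992 to 1.05). The order of these class II genes therefore turned between D2 and D4, and at D8 their levels did not differ beyond counting error. The FPKM of DCN was 5.10 times that of BGN at D0 and then 9.64, 15.6 and 15.0 times at D2, D4 and D8. The intervals for D4, 15.1 to 16.1, and D8, 14.4 to 15.8, overlap. ASPN stood at 0.727 of the FPKM of DCN at D0 and then 0.251, 0.112 and 0.550 at D2, D4 and D8. The ratio of FMOD to PRELP was between 164 at D8 and 2516 at D2, where PRELP had 15 reads.

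**Figure D5:**
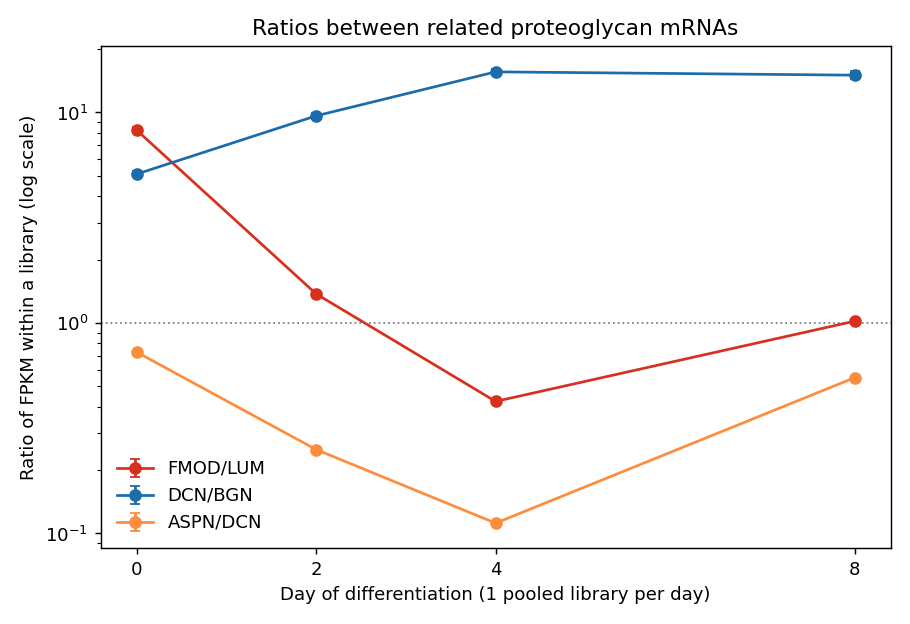
Ratio of FPKM within a library (y axis, log scale, with 95% counting intervals) for FMOD over LUM, DCN over BGN and ASPN over DCN on days 0, 2, 4 and 8 (x axis). FMOD over LUM crosses from 8.25 on day 0 to 0.424 on day 4 and meets 1 on day 8.

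For each of the 9 genes, the closest course over the 4 libraries was sought among 4079 other protein-coding genes with a mean FPKM of at least 10. The measure was the largest distance in centred log2(FPKM + 0.01) at any stage, and it describes 4 points only. The closest gene was COMMD9 for DCN (distance 0.05), CYGB, which encodes cytoglobin, for LUM (0.12), ODC1, ornithine decarboxylase, for BGN (0.06) and DKK3, a secreted protein of the Dickkopf family, for FMOD (0.16). It was KLHL24 for OGN (0.07), FAM129A for ASPN (0.11), an entry named rna78615 for VCAN (0.09), CCNB1, cyclin B1, for PRELP (0.27) and TMSB15A for PODN (0.39). Courses within 0.25 were found in 110 genes for DCN, 88 for OGN and 37 for BGN. There were 8 for VCAN, 7 for ASPN, 6 for LUM, 2 for FMOD and 0 for PRELP and PODN. Among the 9 genes themselves, DCN and OGN were closest to each other (0.35), LUM was closest to VCAN (0.51) and BGN to FMOD (0.63).

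Lists of genes that make, modify, bind or break down proteoglycans held 139 other genes found in the data, of which 98 passed the filter. In D2 vs D0, 15 of these genes were at least 2-fold higher and 6 at least 2-fold lower. The numbers were 3 higher and 2 lower in D4 vs D2, and 8 higher and 23 lower in D8 vs D4. Against D0, 23 were higher and 10 lower at D4, and 7 were higher and 3 lower at D8. In either direction these were 5.10% of the listed genes in D4 vs D2, about the 5.08% of all tested genes. The share was 21.4% in D2 vs D0, beside 16.8% of all tested genes, and 10.2% in D8 vs D0, beside 7.28%. It was 33.7% in D4 vs D0, beside 19.2%, and 31.6% in D8 vs D4, beside 14.5%. Under median-of-ratios scaling, the numbers for D8 against D4 were 11 higher and 14 lower, and those for D8 against D0 were 8 and 1.

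Of 10 genes of core protein cleavage that passed the filter, 6 were at least 2-fold higher at D4 than at D0, beside 10.4% of all tested genes, and 0 were lower, beside 8.81%, with a median log2 ratio of 1.24 against 0.06 for all tested genes, and 5 were at least 2-fold lower at D8 than at D4, beside 10.1%. ADAMTS4, a protease that cuts versican and aggrecan, had an FPKM of 2.32, 31.5, 32.8 and 3.06 at D0, D2, D4 and D8. The gelatinase MMP2 had 99.3, 371, 481 and 96.8. The other 4 at D4 were ADAMTS1, ADAMTS9, ADAMTS20 and MMP14. All of these except ADAMTS1 were highest at D4, as LUM and VCAN were, but they were picked for a high level at D4 against D0. Of the other genes that passed the filter, BMP1 and TIMP3 were also highest at D4, HTRA1 at D2 and ADAMTS5 at D0. Among the genes of this list that did not pass the filter, ADAMTS15 and the collagenase gene MMP13 reached FPKM 1 in a library, and both are named after their values were seen. ADAMTS15 had an FPKM of 0.319, 7.25, 18.3 and 0.575, highest at D4, whereas MMP13 had 0.693, 0.110, 1.02 and 6.88, highest at D8.

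The other core proteins are given by list. Of 10 other small leucine-rich genes, 3 passed the filter (OMD, ECM2 and TSKU). OMD was the only one past 2-fold against D0, at D8, where 3.60% of all tested genes were at least 2-fold higher. From D4 to D8, OMD and ECM2 were at least 2-fold higher, beside 4.43%, and TSKU at least 2-fold lower, beside 10.1%. Of 7 genes of the hyaluronan matrix that passed the filter, 1 was at least 2-fold higher and 3 lower at D4 than at D0, beside 10.4% and 8.81% of all tested genes. TNFAIP6, which links hyaluronan to proteins, was higher with an FPKM of 30.6, 76.4, 111 and 53.3. CEMIP, which depolymerizes hyaluronan, was lower with 56.1, 26.6, 16.7 and 11.14, and the hyaluronan receptor gene HMMR was lower at D2, with 9.99, 2.34, 6.57 and 6.45. CD44 was also at least 2-fold lower at D2, D4 and D8 than at D0, and HAPLN3 at D4. ACAN, BCAN and NCAN, the other lecticans, were under FPKM 0.1 throughout. Of 10 cell surface and basement membrane proteoglycan genes that passed the filter, 2 were at least 2-fold higher at D4 than at D0 (GPC6 and TGFBR3). Another 2 were at least 2-fold lower (SDC2 and SRGN), beside 10.4% higher and 8.81% lower among all tested genes. TGFBR3 (betaglycan) had an FPKM of 3.37, 23.3, 22.7 and 3.27, and SDC2 (syndecan-2) had 478, 91.5, 83.5 and 324. SDC2 was thus low at D2 and D4 as ASPN was, and it held the largest part of the summed FPKM of that list in each library.

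The enzymes that build the sugar chains are given by chain, and differences between chains were not tested. For the linker and for chondroitin and dermatan sulfate, the chains of VCAN, DCN and BGN, 1 of 17 genes was at least 2-fold higher and 1 lower at D4 than at D0, beside 10.4% and 8.81% of all tested genes, with a median of 0.04. These were the sulfotransferase gene CHST3, with an FPKM of 1.49, 3.51, 6.93 and 2.44, and the polymerase gene CHSY3, with 14.9, 7.68, 7.12 and 8.36. The sulfotransferase gene CHST13, named after its values were seen, did not pass the filter but had an FPKM of 0.00625 at D0 and of 0.755, 4.89 and 4.21 at the later stages. For keratan sulfate, the chain of FMOD and LUM in some tissues, 2 of 4 were at least 2-fold higher at D4 than at D0. None was at least 2-fold lower, beside 10.4% higher and 8.81% lower among all tested genes. Of the 9 genes of that list, 6 were found in the data, and B3GNT7, B4GALT4 and CHST6 were not. The count therefore covers a part of the list. CHST2 had an FPKM of 1.68, 3.42, 5.03 and 0.979 and B4GALT1, a galactosyltransferase gene, 5.02, 10.3, 11.7 and 5.44. For heparan sulfate, 5 of 10 were at least 2-fold higher at D4 than at D0, beside 10.4% of all tested genes. At least 2-fold lower were 0, beside 8.81%, and the median was 0.80. EXT2 had an FPKM of 7.38, 12.9, 15.6 and 7.75 and HS6ST1 4.11, 5.17, 8.46 and 5.56. SULF1 and SULF2 were lower at D4 than at D0 by less than 2-fold, with log2 ratios of -0.89 and -0.20.

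Of 13 genes that supply sugar nucleotides and sulfate, 2 were at least 2-fold higher at D4 than at D0, beside 10.4% of all tested genes. At least 2-fold lower was 1, beside 8.81%. GFPT2, which feeds the hexosamine pathway, had an FPKM of 8.44, 40.9, 46.8 and 17.9, and the sulfate transporter gene SLC26A2 had 4.005, 9.50, 10.96 and 3.57. PAPSS2, which makes the sulfate donor, was at least 2-fold lower at D4, with 22.1, 13.7, 10.9 and 20.7. Of 13 lysosomal enzymes that break down the chains, only GALNS was past 2-fold at D4 against D0, beside 19.2% of all tested genes in either direction. The median of the list was 0.81 in D4 vs D0, against 0.06 for all tested genes. In D8 vs D4 it was -0.61, against -0.21. The last list held 11 fibrillar and associated collagens, to which the small leucine-rich proteins bind. COL3A1, COL5A3 and COL6A3 were at least 2-fold higher and COL5A1, COL11A1 and COL14A1 at least 2-fold lower at D4 than at D0. These 3 higher and 3 lower stand beside 10.4% and 8.81% of all tested genes. COL5A3 had an FPKM of 1.23, 7.42, 37.1 and 11.7. COL11A1 had 6.65, 2.46, 0.529 and 44.1, with the lowest level at D4 and the highest at D8 that ASPN also showed. COL5A1 had 61.2, 33.5, 21.3 and 31.6.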

How the data were processed

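Per the labels and the methods of the study, the authors aligned trimmed reads to the pig genome Sscrofa11.1 with HISAT2 2.0.5, assembled lncRNAs, and deposited FPKM for genes. For circRNAs, BWA-MEM alignments were searched with CIRI and the deposited signal is SRPBM. The counting program and its strand setting are not given in the sources used here.

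Each library total was computed from the deposited FPKM of tRNA and miRNA genes, for which 1 read on a gene of known length sets the smallest step. Between 93.4% and 94.9% of their values were whole within 0.01 reads. The smallest gene length that turned the FPKM of a gene into whole reads in all 4 libraries was then used. All circRNA values were whole junction reads.

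The 9 genes matched the RefSeq table of Sscrofa11.1 in symbol, start and end. Ratios were computed on log2(FPKM + 0.01) in Python 3.11.15 (pandas 2.3.3, SciPy 1.17.1), with exact binomial counting intervals, and no test was run between stages. Members and lists were chosen with earlier results of these data known. The genes given with values in a list are the 2 largest rises and the 2 largest falls from D0 among those past 2-fold with FPKM of at least 5 in a library. A gene that this rule names is not reported here. The ratio calls and read recovery were tested on simulated data. Other pseudocounts, filters, scalings and a fold of 1.5 were tried.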

Additional observations from a re-analysis of the deposited data

How the results depend on the processing

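With 1 library per stage, no library could be left out. No paired analysis was possible because each stage is a single pool. Of 180 log2 ratios of the 9 genes under other pseudocounts and scalings, 1 changed sign, that of FMOD between D8 and D4, at 0.19 under median-of-ratios scaling. That scaling moved the log2 ratios by 0.20 for D8 against D4 and by 0.16 for D8 against D0, and equal sums over protein-coding genes moved those of D2 against D0 by 0.11. With a pseudocount of 1, the members past 2-fold between D2 and D0 went from 3 to 1, and the listed genes between D4 and D0 from 33 to 20. Without the filter, the members numbered 5 (D2 vs D0) and 3 (D4 vs D2), from PRELP and PODN, and the listed genes 45 (D2 vs D0), 19 (D4 vs D2), 53 (D8 vs D4), 54 (D4 vs D0) and 26 (D8 vs D0), because low genes entered. At a fold of 1.5, the members numbered 6 (D2 vs D0), 3 (D4 vs D2) and 5 (D8 vs D0), and the listed genes 44, 20, 51, 55 and 30 in the same order of the 5 comparisons. Other total counts stayed within 1.5 times those given, but some counts in 1 direction did not. Under median-of-ratios scaling, members lower in D8 vs D4 went from 2 to 1 and members higher in D8 vs D0 from 1 to 2, and listed genes lower went from 23 to 14 in D8 vs D4 and from 3 to 1 in D8 vs D0. With a pseudocount of 1, listed genes lower went from 2 to 1 in D4 vs D2, from 10 to 5 in D4 vs D0 and from 3 to 1 in D8 vs D0, and those higher in D8 vs D4 from 8 to 5. Without the filter, members lower in D8 vs D0 went from 1 to 2. Depth limits PODN and PRELP, with at most 49 and 332 reads in a library, and the VCAN circRNAs, with at most 45 junction reads each.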
